A study of Neogale vison with 6 samples.

Results

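The transcripts of heat shock proteins and chaperones were examined in Mv1Lu, an epithelial cell line from mink lung, after cholesterol depletion (CD). Genes were taken by symbol: the HSPA, HSPB, HSPD, HSPE, HSPH and HSP90 names, the DNAJA, DNAJB and DNAJC names, the CCT subunits with TCP1, the PDIA names, CALR, CANX, HYOU1, HSF1 and HSF2. This gave 68 of the 24526 genes in the count table, and 59 of them had enough reads to be tested. Poly(A) RNA was sequenced in 3 libraries from untreated (control) cultures and 3 from cultures after CD. The CD cells received lovastatin and mevalonate, each at 50 μM, for 16 h, in medium with 10% lipoprotein-deficient serum (LPDS). Statin, mevalonate and serum changed together, so their effects cannot be told apart. The labels do not say whether replicates came from separate cultures, so p-values measure only the spread between these libraries.

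Chaperones bind unfolded proteins and help them fold, assemble, cross membranes or reach degradation. HSP70 proteins do so in cycles of ATP hydrolysis that J-domain proteins (DNAJ) start and nucleotide exchange factors end. HSP90, the small heat shock proteins and the ring-shaped chaperonins take over other clients. The endoplasmic reticulum (ER) has its own HSP70, HSP90, lectins and protein disulfide isomerases (PDI), and mitochondria have another set. Heat shock factors (HSF) drive the cytosolic genes and the unfolded protein response drives the ER genes.

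The libraries held 13473820 to 18633764 reads on genes. Between 29.3% and 47.2% of all reads had been assigned to no gene, with the highest share in control replicate 1. Levels are given as CPM, read counts scaled to library size after TMM normalization, which compare one gene between libraries but not genes with each other. The biological coefficient of variation, a measure of spread beyond counting error, was 0.0842 among control and 0.213 among CD libraries. CD replicate 3 stood apart, with a chi-square per degree of freedom over genes of 72.4 and 47.8 against CD replicates 1 and 2, which had 15.1 between them. Control replicate 3 had 37.9 and 25 against control replicates 1 and 2, which had 9.23 between them. Of 6 epithelial marker genes found, KRT19 was at 936 ± 66.9 CPM in control and 458 ± 77.1 CPM under CD (SD, n = 3 each), whereas EPCAM, CDH1 and CLDN7 were under 0.5 CPM in both groups. CLDN4 and DSP, at 0.603 and 1.87 CPM in control and 7.03 and 5.16 CPM under CD, were called higher (log2FC 3.55 and 1.46, FDR 9.61e-06 and 0.0014, edgeR), so 2 epithelial markers were higher and 1, KRT19, was lower. The lung markers SFTPC, SFTPB and AQP5 had 0 counts in all libraries, NKX2-1 and FOXJ1 had 23 and 11 counts in control and 9 and 12 under CD, and SCGB1A1, at 1.41 CPM in control and 0.598 CPM under CD, was called lower (log2FC -1.21, FDR 0.0125, edgeR). The summed epithelial markers, nearly all KRT19, ran from 886 to 1010 CPM in control and from 391 to 544 CPM in CD libraries, and 6 fibroblast markers from 310 to 387 and from 182 to 232 CPM. Of 5 fibroblast markers tested, COL1A1, COL1A2, COL3A1 and PDGFRB were called lower (log2FC from -1.72 to -0.37), PDGFRA was not (log2FC -0.04), and LUM, with 7 and 35 counts, was not tested. Endothelial markers summed to 0.0723 to 0.22 CPM in control and 1.17 to 1.96 CPM in CD libraries, with VWF called higher (log2FC 3.38, FDR 8.82e-04, edgeR), and 3 leukocyte markers, mostly CD68, summed to 5.13 to 5.62 CPM in control and 16.9 to 22.4 CPM in CD libraries (CD68 log2FC 1.85, FDR 2.49e-05, edgeR). The part of these markers in the results was not tested. Fewer cells of one type and less RNA per cell cannot be told apart in such bulk libraries.

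CD moved chaperone transcripts in both directions: HSPB8, HSF2 and 4 of 5 cytosolic DNAJB genes rose, and 3 of 5 PDI genes, HYOU1 and HSPA5 of the ER fell. Calls rest on edgeR's quasi-likelihood test with the FDR, adjusted over all 12148 genes tested, below 0.05. Changes are log2 ratios of CD to control (log2FC) with their standard error (SE). Of the 59 chaperone genes tested, 16 were higher and 18 lower in CD. This makes 57.6% of them called, whereas 47.7% of all tested genes were called. The higher genes made up 27.1% (24.8% of all genes) and the lower genes 30.5% (22.9% of all genes). The median log2FC was -0.08, compared with 0.06 over all tested genes. In the cytosol and nucleus 12 genes were higher and 7 lower of 36 tested, with a median log2FC of 0.17. In the ER 1 was higher and 8 were lower of 15, with a median of -0.44. DNAJB9 and DNAJC10 of the ER, matched only by description and not counted here, were also called higher. In mitochondria 2 were higher and 3 lower of 6, with a median of -0.32. The other 2 genes, DNAJC27 and DNAJC13, were placed in none of these compartments, and DNAJC27 was higher. No difference between compartments was tested. Without control replicate 1, 10 chaperone genes were higher, including DNAJC28, which is not among the 59, and 11 were lower. Without control replicate 3, 9 were higher. Without CD replicate 3, 17 were higher, again including DNAJC28, and 22 lower. The counts over all genes fell too, from 3016 higher and 2784 lower to 2265 and 2214 without control replicate 1 and to 2216 and 2194 without control replicate 3, and rose to 3616 and 3606 without CD replicate 3. The 7 lower genes of the cytosol and nucleus became 3 without control replicate 1 or CD replicate 2, 4 without control replicate 2, control replicate 3 or CD replicate 1, and 10 without CD replicate 3, and the 12 higher ones became 7 without control replicate 1 or 3. The 1 ER gene counted as higher, DNAJC1, lost its call when any control library or CD replicate 2 was left out. Without control replicate 3 the 2 higher mitochondrial genes became 1. Of the 34 called genes, 9 higher and 10 lower ones were called in every other setting that tested them.

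**Figure D1:**
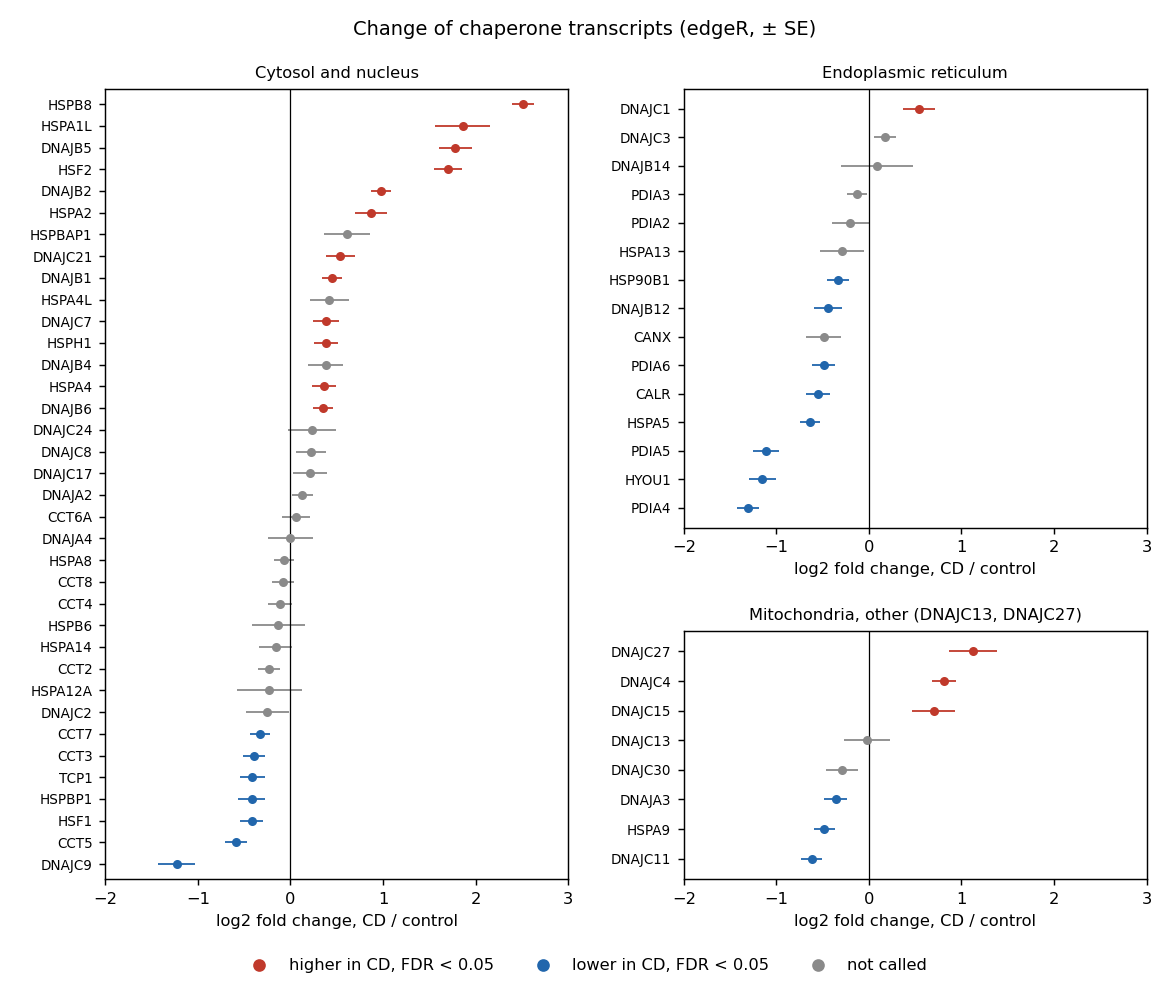
Log2FC of CD against control with its SE for the 59 chaperone genes tested with edgeR, in panels by compartment. Red points were higher, blue points lower at an FDR under 0.05, and gray points were not called. The cytosolic panel reaches from -1.23 (DNAJC9) to 2.51 (HSPB8), and in the ER panel DNAJC1 alone was called higher. Genes matched only by description, such as DNAJB9 and DNAJC10 of the ER, are not shown.

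The largest change among these genes belonged to HSPB8, a small heat shock protein that works with BAG3 to deliver misfolded clients to selective autophagy. HSPB8 was at 292, 286 and 313 CPM in control replicates 1, 2 and 3 and at 1651, 1731 and 1692 CPM in CD replicates 1, 2 and 3. All CD libraries lay far above all control libraries, and neither group spread widely. The log2FC was 2.51, or 5.7-fold (SE 0.12, FDR 3.46e-07, edgeR). BAG3 itself, at 230 ± 17.7 CPM in control and 254 ± 19.7 CPM under CD (SD, n = 3 each), was not called (log2FC 0.15, SE 0.11, FDR 0.314, edgeR). HSPB6, another small heat shock protein, had 90 and 84 counts in the 3 control and the 3 CD libraries and was not called (log2FC -0.13, SE 0.29). HSPB9 had 1 count in all, and HSPB3 had none.

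HSPB1 has no symbol in the count table and was therefore not among the 68 genes. A gene that the table describes as small heat shock protein family member 1 (ENSNVIG00000003553) was found after the counts had been seen. This HSPB1 gene was at 287, 256 and 251 CPM in control and at 1402, 1761 and 2421 CPM in CD replicates 1, 2 and 3. Every CD library was above every control library, and CD replicate 3 was the highest. The log2FC was 2.81, or 7.03-fold (SE 0.20, FDR 3.5e-06, edgeR).

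The heat shock factors moved in opposite directions. HSF1 is the main activator of heat shock genes, and HSF2 binds the same elements and can pair with HSF1. HSF2 was at 19.2, 21.1 and 16.4 CPM in control and at 64.7, 54.6 and 64.3 CPM in CD libraries. HSF2 thus rose 3.24-fold (log2FC 1.70, SE 0.15, FDR 1.22e-05, edgeR), with no overlap of the groups. HSF1 was at 124, 124 and 122 CPM in control and at 80.1, 99.1 and 96.5 CPM in CD libraries. HSF1 was lower in every CD library than in any control library (log2FC -0.42, SE 0.12, FDR 0.0135, edgeR), but without control replicate 1 it was not called (FDR 0.0588). For every 100 reads of HSF1, HSF2 had 13.5 to 17.0 reads in the control and 55.1 to 80.8 reads in the CD libraries. This ratio was formed after the values had been seen and was not tested.

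**Figure D2:**
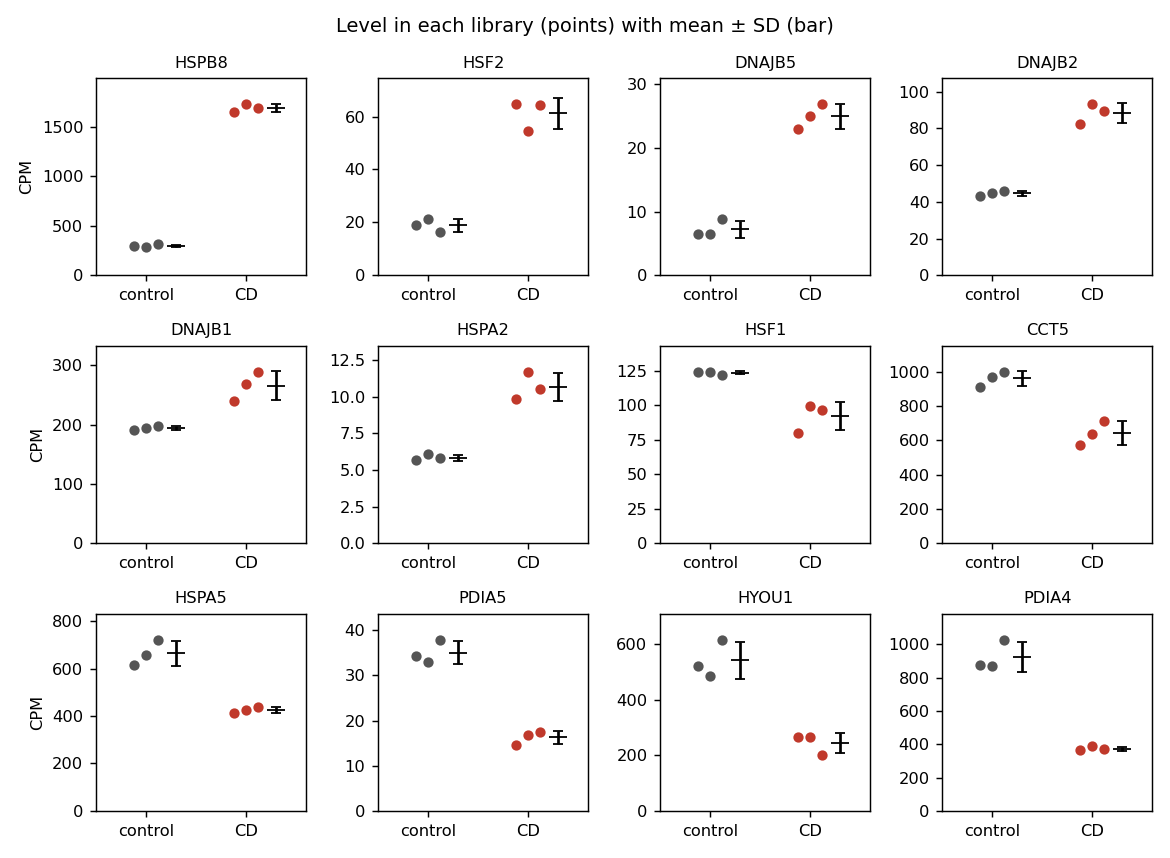
Level in CPM of 12 chaperone genes in each control (gray) and CD (red) library, with the mean and SD of 3 libraries as a bar beside the points, on axes that start at 0. HSPB8, HSF2, DNAJB5, DNAJB2, DNAJB1 and HSPA2 were higher in every CD library, and HSF1, CCT5, HSPA5, PDIA5, HYOU1 and PDIA4 lower.

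Among the HSP70 and HSP110 proteins of the cytosol, 4 of 8 tested genes (50%) were higher, where 24.8% of all genes were, and 0 were lower (DESeq2 gave the same calls, and no other gene of the 8 had an unadjusted edgeR p under 0.05). HSPA2, an HSP70 best known from testis, was at 5.66, 6.07 and 5.79 CPM in control and at 9.83, 11.7 and 10.5 CPM in CD libraries. The groups did not overlap, and the log2FC was 0.87 (SE 0.17, FDR 0.0022, edgeR). HSPA1L had 20 counts over the control libraries and 75 over the CD libraries, a log2FC of 1.86 (SE 0.30, FDR 7.26e-04, edgeR). This gene is nearly identical to HSPA1A and HSPA1B, which were not found by symbol, so its reads are uncertain. HSPH1 and HSPA4, exchange factors of the HSP110 type, rose by log2FC values of 0.38 and 0.36 (FDR 0.0372 and 0.0395, edgeR), and these calls were lost in 8 and 6 of 14 other settings. HSPA8, the constitutive HSP70 of the cytosol, was at 723, 788 and 693 CPM in control and at 670, 714 and 711 CPM in CD libraries. The groups overlapped (log2FC -0.07, SE 0.11, FDR 0.618, edgeR). HSPA4L, HSPA14 and HSPA12A were not called either. The log2FC of HSPA4L was 0.42 with all libraries, 0.16 without CD replicate 1 and 0.54 without CD replicate 3, where it was called (FDR 0.00221, edgeR). HSPA12B had 5 counts over the 6 libraries, and HSPA12A was at 16.2, 13.1 and 4.83 CPM in CD replicates 1, 2 and 3.

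The cytosolic DNAJB proteins, which hand clients to HSP70, were higher for 4 of 5 tested genes (80%), where 24.8% of all genes were. DNAJB5 was at 6.45, 6.50 and 8.82 CPM in control and at 23.0, 25.0 and 26.9 CPM in CD libraries. This was a rise of 3.43-fold (log2FC 1.78, SE 0.18, FDR 3.53e-05, edgeR), and no CD library came near the control libraries. DNAJB2, a J-domain protein that also binds ubiquitin, was at 43.3, 44.7 and 45.8 CPM in control and at 82.2, 93.2 and 89.3 CPM in CD libraries. It rose 1.98-fold (log2FC 0.98, SE 0.11, FDR 7.7e-05, edgeR). DNAJB1, the J-domain partner of stress-induced HSP70, was at 191, 195 and 197 CPM in control and at 240, 268 and 289 CPM in CD libraries. Its groups did not overlap, although the change was smaller (log2FC 0.45, SE 0.11, FDR 0.00707, edgeR). DNAJB6, a suppressor of protein aggregation, rose by a log2FC of 0.35 (SE 0.11, FDR 0.0232, edgeR), a call lost in 5 of 14 other settings. DNAJB4 had a log2FC of 0.38 and was not called (SE 0.19, FDR 0.129, edgeR), and its log2FC was 0.18 without CD replicate 3. DNAJB13, DNAJB7 and DNAJB8 had 5, 1 and 0 counts over the 6 libraries.

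The DNAJC proteins of the cytosol and nucleus have varied tasks, and of 7 tested 2 were higher and 1 was lower, or 42.9% called, where 47.7% of all genes were. DNAJC9, which handles histones H3 and H4, was at 9.46, 9.40 and 10.4 CPM in control and at 4.61, 3.31 and 4.54 CPM in CD libraries. The groups were well apart (log2FC -1.23, SE 0.20, FDR 6.24e-04, edgeR). DNAJC21, a factor of ribosome assembly, rose by a log2FC of 0.54 (SE 0.16, FDR 0.0159, edgeR) and DNAJC7, which binds HSP70 and HSP90, by 0.38 (SE 0.14, FDR 0.0442, edgeR). The call of DNAJC21 was lost without control replicate 1 or 3 (FDR 0.0551 and 0.0758, edgeR). The call of DNAJC7 was lost in 8 of 14 other settings, DESeq2 included, and its log2FC was 0.24 without CD replicate 3. Outside these compartments, DNAJC27, a Rab-like GTPase with a J domain, rose from 58 to 126 counts in the 3 libraries of each group (log2FC 1.12, SE 0.26, FDR 0.00588, edgeR). DNAJC13, an endosomal protein, was at 35.6, 21.3 and 16.6 CPM in CD replicates 1, 2 and 3, around the control range of 22 to 26.8 CPM, and was not called (FDR 0.953, edgeR). DNAJC2, DNAJC8, DNAJC17 and DNAJC24, the cytosolic DNAJA2 and DNAJA4 and the HSP27-binding HSPBAP1 were not called, with log2FC values from -0.25 to 0.61. DNAJC2, at -0.25, was called lower without CD replicate 3 (log2FC -0.56, FDR 0.00301, edgeR). HSPBP1, an exchange factor of HSP70, fell by 0.42 on the log2 scale (SE 0.15, FDR 0.0401, edgeR), and this call was lost in 6 of 14 other settings, with a log2FC of -0.27 without CD replicate 1.

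The CCT ring (TRiC), which folds actin and tubulin, is built of subunits encoded by TCP1 and the CCT genes. Of its 8 tested genes, 4 (50%) were lower, where 22.9% of all genes were, and 0 higher in CD (0 by DESeq2 as well, and 0 with an unadjusted edgeR p under 0.05). CCT5 was at 915, 973 and 1001 CPM in control and at 575, 638 and 713 CPM in CD libraries. It had the largest change of the ring (log2FC -0.59, SE 0.12, FDR 0.00312, edgeR), with no overlap of the groups. TCP1, CCT3 and CCT7 had log2FC values of -0.41, -0.39 and -0.33 (FDR 0.0250, 0.0197 and 0.0352, edgeR). These 3 calls were lost in 3, 4 and 6 of 14 other settings. CCT2, CCT4, CCT8 and CCT6A lay between -0.23 and 0.06 with SE values of 0.12 to 0.15 and were not called. Without CD replicate 3, CCT2 and CCT4 were called lower (log2FC -0.30 and -0.26, FDR 0.0221 and 0.0405, edgeR). Summed over the ring, the level was 3733, 4014 and 3978 CPM in control and 2891, 2973 and 3381 CPM in CD libraries. CCT6B, a paralog of CCT6A, had 31 and 23 counts in control and CD libraries and was not tested.

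In the ER, 3 of 5 PDI genes (60%), 2 of 3 HSP70 and HSP110 genes (66.7%), HSP90B1 and CALR were lower. Of all tested genes 22.9% were lower. PDIA4, which forms and rearranges disulfide bonds, was at 876, 872 and 1028 CPM in control and at 365, 388 and 370 CPM in CD libraries. Its CD libraries lay close together and far below the control libraries (log2FC -1.31, SE 0.12, FDR 1.73e-05, edgeR). PDIA5 was at 34.3, 32.9 and 37.9 CPM in control and at 14.6, 16.9 and 17.4 CPM in CD libraries (log2FC -1.11, SE 0.14, FDR 1.61e-04, edgeR). PDIA6 fell by 0.49 on the log2 scale (SE 0.12, FDR 0.00602, edgeR), while PDIA3, the partner of the lectins, had a log2FC of -0.13 (SE 0.11) and PDIA2 one of -0.20 (SE 0.20), and neither was called. HYOU1, the exchange factor of the ER HSP70, was at 524, 488 and 617 CPM in control and at 267, 266 and 202 CPM in CD libraries. All CD libraries were below all control libraries (log2FC -1.15, SE 0.15, FDR 1.57e-04, edgeR).

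HSPA5 (BiP), the ER HSP70 and a common readout of ER stress, was at 615, 657 and 722 CPM in control and at 412, 426 and 440 CPM in CD libraries. It fell with no overlap of the groups (log2FC -0.64, SE 0.11, FDR 0.00113, edgeR). CALR, a calcium-binding lectin of the ER lumen, was at 2622, 2471 and 2967 CPM in control and at 1658, 1870 and 1990 CPM in CD libraries (log2FC -0.55, SE 0.13, FDR 0.00752, edgeR). CANX, its membrane-bound relative, was at 340, 346 and 372 CPM in control and at 323, 253 and 179 CPM in CD replicates 1, 2 and 3. The CD libraries of CANX differed widely from each other, and the gene was not called (log2FC -0.49, SE 0.19, FDR 0.0539, edgeR), although it was called in 8 of 14 other settings, DESeq2 included. HSP90B1, the ER HSP90, had a log2FC of -0.33 (SE 0.12, FDR 0.0439, edgeR), and this call was lost in 9 of 14 other settings. HSPA13, an HSP70-like protein of microsomes, was not called (log2FC -0.29, SE 0.24), but without CD replicate 1 it was (log2FC -0.62, FDR 0.0166, edgeR).

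Of 4 J-domain genes of the ER found by symbol, 1 was higher and 1 was lower, where 24.8% of all genes were higher and 22.9% lower. DNAJB9 and DNAJC10, ER genes matched only by description and given below, were also called higher. DNAJC1, a membrane protein that binds HSPA5, was at 25.4, 24.9 and 24.9 CPM in control and at 29.4, 34.8 and 45.7 CPM in CD libraries. Every CD library was higher, and they differed from each other more than the control libraries did (log2FC 0.54, SE 0.17, FDR 0.0239, edgeR). The call of DNAJC1 was lost without control replicate 1, 2 or 3 and without CD replicate 2, and its log2FC was 0.32 without CD replicate 3. DNAJC3, a co-chaperone of HSPA5, had a log2FC of 0.17 (SE 0.12) and DNAJB14 one of 0.09 (SE 0.39), and neither was called. DNAJB12, which acts in ER-associated degradation, was lower (log2FC -0.44, SE 0.15, FDR 0.0332, edgeR), a call lost in 5 of 14 other settings.

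The table lists 9 genes of the HSP and DNAJ families under another symbol or none, recognizable by their descriptions, and HSPB1 is one of them. Of these 9 genes, 8 were tested, 5 were called, all higher, and they were not counted above. Over all tested genes 24.8% were higher and 47.7% were called in either direction. DNAJB9, an ER J-domain protein that restrains the stress sensor IRE1, was at 2.65, 2.17 and 2.64 CPM in control and at 7.5, 5.46 and 6.48 CPM in CD libraries. It rose 2.59-fold (log2FC 1.37, SE 0.21, FDR 5.44e-04, edgeR), and the groups were far apart. DNAJC10, which reduces disulfide bonds of ER proteins bound for degradation, rose by a log2FC of 0.41 (SE 0.13, FDR 0.0244, edgeR). DNAJA1, a cytosolic partner of HSP70, rose by 0.37 (SE 0.13, FDR 0.0408, edgeR) and HSPB11, also known as IFT25, by 1.22 (SE 0.23, FDR 0.00162, edgeR). The calls of DNAJC10 and DNAJA1 were lost in 3 and 8 of 14 other settings, and the log2FC of DNAJA1 was 0.20 without CD replicate 3. DNAJC16, DNAJC18 and DNAJC6 were not called, and DNAJC22 had 2 counts. With these genes added, 21 chaperone genes were higher and 18 lower.

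In mitochondria, HSPA9, the HSP70 that pulls proteins into the matrix, was at 231, 257 and 223 CPM in control and at 184, 166 and 158 CPM in CD libraries. It fell with no overlap of the groups (log2FC -0.48, SE 0.11, FDR 0.00578, edgeR). DNAJC11, which helps to shape the inner membrane, was at 152, 156 and 170 CPM in control and at 98.7, 107 and 106 CPM in CD libraries (log2FC -0.62, SE 0.11, FDR 0.00103, edgeR). DNAJA3, the J-domain partner of HSPA9, had a log2FC of -0.36 (SE 0.12, FDR 0.0372, edgeR), a call lost in 6 of 14 other settings. DNAJC4 was at 39.0, 38.9 and 40.3 CPM in control and at 60.2, 68.0 and 79.4 CPM in CD libraries, and every CD library was higher (log2FC 0.81, SE 0.13, FDR 7.22e-04, edgeR). DNAJC15, a regulator of protein import, was at 31.1, 26.6 and 49.8 CPM in CD replicates 1, 2 and 3 and at 19.3 to 25.3 CPM in control (log2FC 0.70, SE 0.23, FDR 0.0284, edgeR), and its log2FC was 0.36 without CD replicate 3. The call of DNAJC15 was lost without control replicate 1 or 3 (FDR 0.0832 and 0.119, edgeR). DNAJC30 was not called, and DNAJC28, with 11 counts in control and 33 in CD libraries, was not tested. HSPD1 and HSPE1, the mitochondrial chaperonin, and the cytosolic HSP90AA1 and HSP90AB1 were not found by symbol and were not analysed here.

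The summed level of a compartment follows the members with the most reads. A gene's share of such a sum is a share of reads, because CPM does not compare genes with each other. The 15 ER genes summed to 6427, 6350 and 7221 CPM in control and to 4202, 4416 and 4539 CPM in CD libraries. CALR made up 38.9% to 43.8% of this sum over the 6 libraries. Without CALR the sums were 3980 ± 241 CPM in control and 2546 ± 2.46 CPM under CD (SD, n = 3 each), so the lower sum did not rest on CALR. The 44 cytosolic and nuclear genes summed to 6097 ± 198 CPM in control and 6890 ± 365 CPM under CD. HSPB8 made up 4.54% to 5.13% of this sum in control and 23.2% to 25.4% in CD libraries. Without HSPB8 the direction turned, with 5801 ± 202 CPM in control and 5199 ± 354 CPM under CD. This turn holds only for the genes found by symbol. HSPB1, which is not in these sums, was at 265 ± 19.4 CPM in control and 1861 ± 517 CPM under CD. That rise is larger than the fall of the sum without HSPB8. The 7 mitochondrial genes summed to 531 ± 19.6 CPM in control and 437 ± 8.96 CPM under CD.

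**Figure D3:**
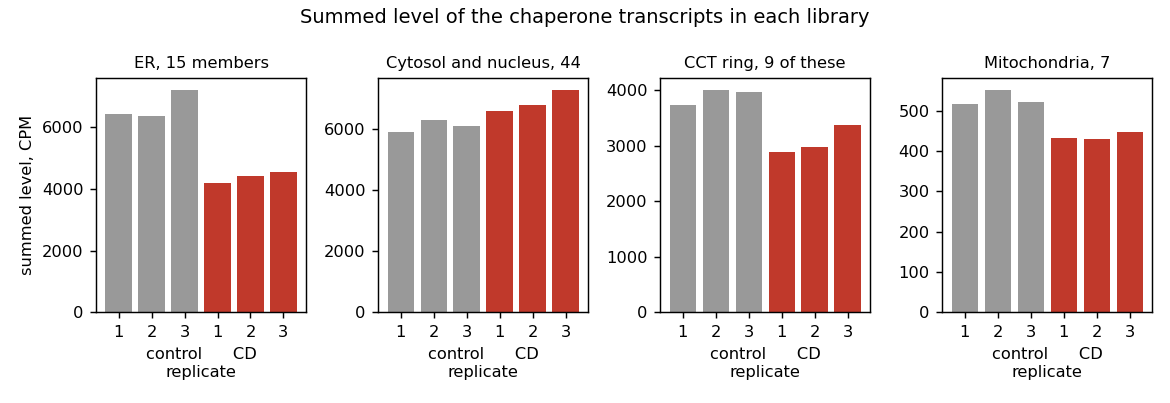
Summed level in CPM of the chaperone genes of the ER, of the cytosol and nucleus, of the CCT ring (a subset of the cytosolic genes) and of mitochondria in each library, control in gray and CD in red. The ER sums were 6350 to 7221 CPM in control and 4202 to 4539 CPM in CD libraries, and the cytosolic sums were higher in all CD libraries. Genes matched only by description, HSPB1 among them, are in none of the sums.

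The libraries of the CD group differed from each other more than those of the control group. The median coefficient of variation of the 59 genes was 7.82% in control and 11.2% in CD libraries, and over all tested genes it was 8.80% and 17.0%. The groups did not overlap for 17 of the 59 genes in the higher and 21 in the lower direction, or 64.4%, whereas 58.0% of all tested genes had no overlap (29.5% higher, 28.6% lower). Changes that were called and reached 2-fold concerned 5 higher genes (HSPB8, HSPA1L, DNAJB5, HSF2 and DNAJC27) and 4 lower genes (PDIA4, DNAJC9, HYOU1 and PDIA5). This is 8.47% and 6.78% of the 59 genes, compared with 10.6% and 9.64%, or 20.2% in either direction, of all tested genes. Of the 9 genes not tested, DNAJB8, DNAJC12 and HSPB3 had 0 counts in all libraries. A count of 0 allows up to 3 counts, or 0.165 to 0.217 CPM, in a library, by counting error alone.

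Genes that work with these chaperones were read from lists of 83 symbols, of which 72 were found and tested. Here 8 (11.1%) were higher and 25 (34.7%) lower at the same FDR, with a median log2FC of -0.14. Over all tested genes 24.8% were higher and 22.9% lower, with a median of 0.06, and the share called in either direction was 45.8% in these lists and 47.7% over all genes. The 8 higher genes became 5 without control replicate 1 or 2. Of 21 other ER folding factors, 2 were higher and 10 lower, with a median log2FC of -0.16. P4HB, the first PDI described, was at 2711, 2532 and 3110 CPM in control and at 1221, 1410 and 1485 CPM in CD libraries. It fell with no overlap of the groups (log2FC -1.02, SE 0.14, FDR 2.29e-04, edgeR). CNPY3, which folds Toll-like receptors, and CRELD2, an ER stress target, had log2FC values of -1.74 and -1.06 (FDR 5.46e-06 and 1.74e-04, edgeR). UGGT2 and ERP44 were the members of this list that rose (log2FC values 0.58 and 0.38).

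Of 14 HSP90 co-chaperones, 1 was higher (SUGT1) and 5 were lower, or 42.9% called, where 47.7% of all genes were. The largest change was that of FKBP4, an immunophilin of steroid receptor complexes, with 605, 615 and 665 CPM in control and 230, 267 and 282 CPM in CD libraries (log2FC -1.27, SE 0.12, FDR 2.21e-05, edgeR). Of 9 HSP70 co-factors, BAG2, an inhibitor of the ubiquitin ligase CHIP, rose by a log2FC of 1.49 (SE 0.27, FDR 0.00135, edgeR), while GRPEL1 and SIL1 were lower. Of 9 other mitochondrial folding factors and proteases, 1 was higher (HSCB) and 5 were lower, among them TRAP1, the mitochondrial HSP90 (log2FC -1.01, SE 0.12, FDR 7.5e-05, edgeR). The 5 prefoldin genes found, whose products bring clients to the CCT ring, had a median log2FC of 0.09, and the lowest FDR was that of PFDN5 (0.0621, edgeR). Among 14 ER stress sensors and effectors, 3 were higher and 3 lower, or 21.4% each, near the shares over all genes. EIF2AK3 (PERK), a kinase that slows translation in ER stress, was at 11.1, 10.6 and 10.7 CPM in control and at 62.3, 48.4 and 47.3 CPM in CD libraries (log2FC 2.29, SE 0.16, FDR 2.77e-06, edgeR). DDIT3 and HERPUD1 were also higher, whereas CREB3L2, ATF6 and ATF6B were lower. CREB3L2 fell most in this list (log2FC -1.45, SE 0.33, FDR 0.00494, edgeR). It was at 44.1, 38.5 and 54.6 CPM in control and at 24.1, 18.2 and 7.64 CPM in CD libraries, which differed widely.

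**Figure D4:**
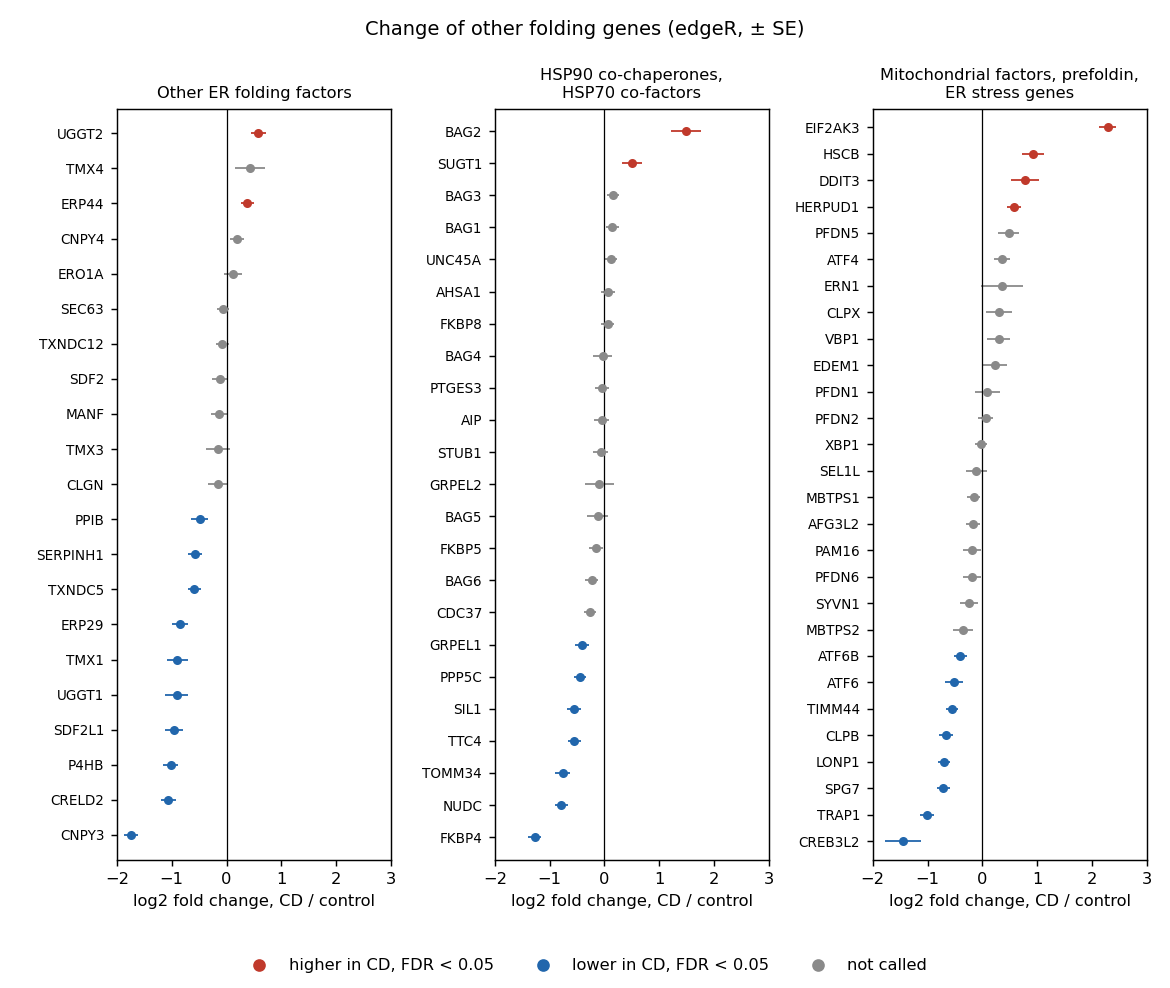
Log2FC of CD against control with its SE for the 72 other folding and ER stress genes tested with edgeR, in panels by list. Red points were higher (8 genes), blue points lower (25 genes) at an FDR under 0.05, and gray points were not called. The values run from -1.74 (CNPY3) to 2.29 (EIF2AK3).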

How the data were processed

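RNA was sequenced from 6 Mv1Lu libraries. The authors trimmed reads with fastp 0.20.1, aligned them with STAR 2.7.2a to the mink assembly NNQGG.v01 and deposited raw counts per gene. They list R 4.0.3 and DESeq2 1.30.1 among their tools. The counting program and strand setting are not given in the sources used here, so overlapping, antisense and near-identical genes are uncertain. The normalized tables were not used because their identifiers did not match those of the counts. Rows naming no gene (4) were left out. Counts were filtered (filterByExpr, minimum count 10, minimum total 15), normalized by TMM and tested with the quasi-likelihood test of edgeR 4.0.16 (robust, condition only) in R 4.3.3, with Benjamini-Hochberg adjustment over all genes. The standard error is the absolute log2 fold change divided by the square root of F. The script was tested on simulated data. DESeq2 1.42.0, limma 3.58.1 (voom), other scalings and filters, a replicate block and leaving out each library were tried. Replicates differed by more than sampling noise. Values were given for a list of core chaperones, called genes of at least 2-fold, genes under the filter and calls lost in another setting. The remaining called genes and the other called partners were named after their values were seen. Members and lists were chosen with earlier results of these data known.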

Additional observations from a re-analysis of the deposited data

How the results depend on the processing

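No result changed direction past the threshold in any of the 14 settings tried. Leaving out 1 library moved the number of chaperone genes called higher between 9 and 17 and lower between 11 and 22. DNAJC28, tested only in some settings, is in the counts of genes called higher without control replicate 1 and without CD replicate 3. Over all genes the counts moved alike, from 2216 to 3616 higher and 2194 to 3606 lower, compared with 3016 and 2784 in all libraries. For the ER these ranges were 0 to 1 higher and 6 to 9 lower, and for the cytosol and nucleus 7 to 12 higher and 3 to 10 lower. For mitochondria they were 1 to 3 higher and 2 to 3 lower, and for the other folding genes 5 to 10 higher and 21 to 30 lower. Cytosolic genes called lower numbered 3 without control replicate 1 or CD replicate 2 and 4 without control replicate 2, control replicate 3 or CD replicate 1. Cytosolic genes called higher numbered 7 without control replicate 1 or 3, the other folding genes called higher 5 without control replicate 1 or 2, and the mitochondrial genes called higher 1 without control replicate 3. With the replicate number as a block, 12 chaperone genes were higher and 14 lower. Libraries of the same number had correlations of deviations of -0.02, -0.33 and -0.18, and not every library correlated best with its own number. These are deviations from the mean of only 3 libraries per group, so they cannot decide whether the numbers pair the samples. DESeq2 called 15 higher and 19 lower. Adding the genes matched by description, a choice made after seeing the data, gave 21 higher and 18 lower. Genes with few counts, such as HSPA1L and DNAJC27, were dropped when 50 counts were required in 3 libraries. The cause of these moves was not tested.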
